A study of Homo sapiens with 10 samples.

Results

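The genes described here are the deubiquitinases and ubiquitin-conjugating enzymes of HCT116 cells, a human colorectal carcinoma cell line, before and after knockdown of YTHDF1. They were taken by symbol, as every gene of the expression table whose name starts with USP and a digit, UBE2, OTUD or UCHL. Earlier results of these data were known when this choice was made. The rule gave 58 of the 6926 rows, with 34 USP, 20 UBE2 and 3 OTUD genes and 1 UCHL gene, UCHL5. USP6NL carries the USP letters but encodes a GTPase-activating protein for Rab GTPases and not a deubiquitinase, so the USP medians were also taken without it.

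Ubiquitin is attached to proteins by a relay in which an E1 enzyme activates it, an E2 enzyme of the UBE2 family carries it and an E3 ligase places it on the target. Some UBE2 proteins carry a ubiquitin-like modifier such as NEDD8 or ISG15 instead. Deubiquitinases of the USP, OTU and UCH families take ubiquitin off again, trim chains and recycle the modifier. YTHDF1 is a reader of N6-methyladenosine (m6A), the methylated base of mRNA, and is known for raising translation of the mRNAs it binds in the cytoplasm.

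Ribosome profiling and mRNA-seq were each done on 2 YTHDF1 knockdown libraries and 1 control library. The knockdown libraries are titled shY1-1 and shY1-2, here knockdown 1 and knockdown 2, and both carry the genotype shY1; the control carries a hairpin against GFP per the file headers. HCT116 cells also gave 1 RNA immunoprecipitation (RIP) library with an antibody to YTHDF1, 1 input library for it, and 2 replicates of m6A-seq. For all of these samples the labels give cycloheximide, an elongation inhibitor, at 100 ug/ml for 3 min. Nothing in the labels ties the knockdown libraries to separate cultures, so p-values measure only the spread between these libraries, which may be technical.

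YTHDF1 itself had mRNA values of 8.62 and 7.81 in the knockdown libraries, against 27.4 in the control. Its footprint values were 17.0 and 19.9 in the knockdown libraries, against 61.4 in the control. The 2 libraries of the knockdown lay below the control in both assays, with adjusted p = 1.00 for mRNA and 0.552 for footprints (limma with Benjamini-Hochberg adjustment), so the design called few genes at all. The deposited values sum to 938928 and 1041090 for knockdown footprints and 1227320 for control footprints, and the depth in reads is unknown. Sums for mRNA lay between 339763 and 345044. Across genes, the log2 values of knockdown 1 correlated with the control at r = 0.913 for footprints and 0.957 for mRNA, and those of knockdown 2 at 0.950 and 0.982. Footprints of all 6782 genes tested had a median change of -0.28 on the log2 scale, and mRNA a median of -0.01.

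The m6A list gives, for each peak, a position along a transcript and the 5 bases around the called site. The sites shown were chosen because both replicates call the same position and the same letters, and because their lower peak ratio is among the highest of their family. Each is printed with the adenosine of the called site in capitals, and its position counts bases from the start of a transcript that the list does not name. A called site can lie outside its peak window, so methylation of the single base is not shown. Of the sites below, those of UBE2O and UBE2G2 lay outside in both replicates and that of USP38 in replicate 2. Sites lay inside their window for 84.6% and 83.5% of member peaks in replicates 1 and 2.
USP38 site 1114: gaAca
USP54 site 3248: gaAca
USP3 site 2106: ggAca
USP48 site 3169: ggAca
USP34 site 10699: aaAcc
UBE2Q1 site 1518: aaAca
UBE2O site 325: ggAct
UBE2G2 site 922: aaAca
UBE2K site 1465: agAct
UBE2T site 609: aaAca
All of them have a purine at the first 2 positions, and A followed by C in the middle, which is the general form of the m6A motif. Every site of the authors' lists has this form, so it does not set these sites apart. The letters ggAc occur in both families, and so do sites without them.

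The USP genes were the longer family. Their median gene span in RefSeq (GRCh38.p14) was 78.8 kb, against 34.5 kb for UBE2 genes and 32.1 kb for the 6565 genes of the table that RefSeq matched. A span of at least 50 kb was found for 24 of 34 USP genes, 8 of 20 UBE2 genes and 35.7% of all matched genes. USP spans ran from 6.22 kb for USP21, known to act on histone H2A, to 284 kb for USP34 on chromosome 2 (61187463 to 61471087), a very large enzyme linked to axin and Wnt signalling. UBE2 spans ran from 2.90 kb for UBE2M, the E2 of NEDD8, to 389 kb for UBE2E2. The long span of UBE2E2 did not come with a far m6A peak, as its last peak ended at 0.875 kb. Over all genes with a peak, the last m6A peak ended at a median of 3.13 kb from the transcript start in 33 USP genes, 1.08 kb in 16 UBE2 genes and 1.98 kb in 5705 genes of the table. That end is a lower limit to the length of the spliced transcript, so UBE2 genes lay below all genes on this measure and not on gene span.

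**Figure D1:**
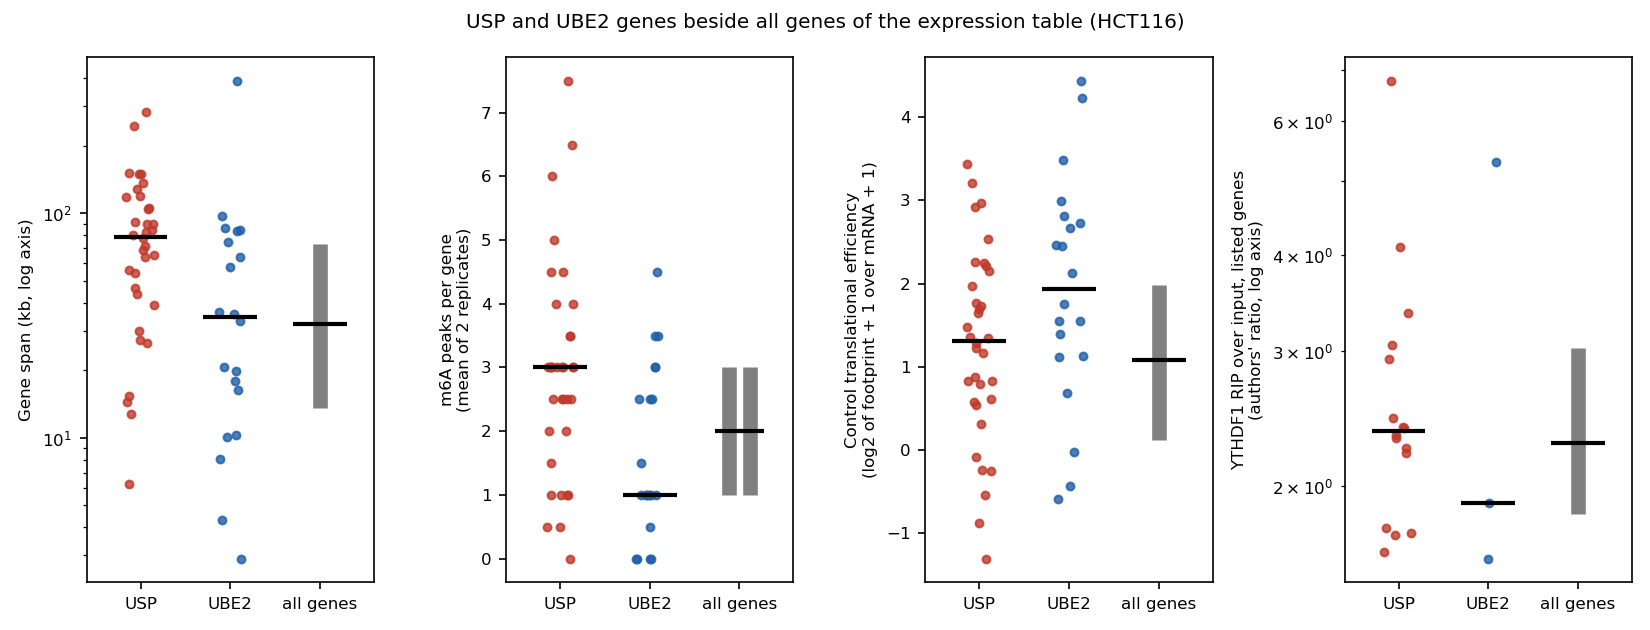
Gene span, m6A peaks per gene, control translational efficiency and RIP ratio of USP (red) and UBE2 (blue) genes, 1 point per gene, beside all genes of the table. Black lines are medians and grey bars the middle 50% of all genes, with 1 bar per replicate for peaks; USP genes have the higher median for span and peaks, and UBE2 genes the higher median for translational efficiency (1.94 against 1.32).

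m6A peaks were found in both replicates for 28 of 34 USP genes (82.4%) and 14 of 20 UBE2 genes (70%), against 71.7% of all 6914 genes with intact names. The USP genes held more of them. At least 3 peaks in both replicates were called for 14 USP genes (41.2%) and 4 UBE2 genes (20%), against 27.2% of all genes. USP genes had a median of 2 and 3 peaks in replicates 1 and 2, UBE2 genes 1 and 1, and all genes 2 and 2. USP53 was the USP gene with no peak in either replicate, and UBE2D1, UBE2N, UBE2Q2 and UBE2S were the UBE2 genes with none. UBE2N forms Lys63-linked chains and UBE2S extends chains on targets of the anaphase-promoting complex.

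The USP genes with the most peaks were USP34 with 5 and 10 in the 2 replicates, USP22 with 7 and 6, USP7 with 6 and 6, USP48 with 4 and 6, and USP32 and USP40 with means of 4.5 each. USP22 is the deubiquitinase of the SAGA coactivator complex, and USP7 acts on p53 and its ligase MDM2. OTUD7B, which cleaves Lys11-linked chains, had 8 and 7 peaks, as many as the leading USP genes. Among UBE2 genes the counts were smaller: UBE2Z, which is charged by the E1 UBA6, had 5 and 4, UBE2G1 2 and 5, UBE2O 4 and 3, and UBE2E1 and UBE2G2 3 and 3. Replicates disagreed for some genes. USP24 had no peak in replicate 1 and 6 in replicate 2, and USP8 had 2 in replicate 1 and none in replicate 2.

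Peak height is the authors' ratio of m6A to input signal, and the list holds no peak under a ratio of 3.00. Over its peaks the USP family had median ratios of 6.20 and 5.95 in replicates 1 and 2, the UBE2 family 4.65 and 5.74, and all genes 5.63 and 5.53. The gap between families was thus seen in replicate 1 and was small in replicate 2. For USP10, an enzyme that acts on p53, the summed ratio was 216 in replicate 1 and 12.6 in replicate 2, and the sum in replicate 1 rested on 1 peak with a ratio of 201 and an input signal of 0.797. The peak of USP24 with a ratio of 97.2 in replicate 2 had an input signal of 6 and no partner in replicate 1. By summed ratio the next USP genes were USP34 (56.3 and 109), USP38 (61.7 and 76.5) and USP54 (60.9 and 50.7), which stand high in both replicates. The highest peaks of USP38 and USP54 also had low input, 14.5 in both replicates for USP38 and 18 and 14.4 for USP54. Over all member peaks the median input signal was 130 and 136. The highest UBE2 sums were 39.5 and 28.1 for UBE2O, 10.4 and 53.4 for UBE2G1, 26.5 and 24.9 for UBE2Q1, 27.4 and 20.4 for UBE2G2, and 18.6 and 17.8 for UBE2Z.

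The printed sites were chosen for height in both replicates, so their heights are a description. The ratios are those of the peaks to which the sites were assigned. They were 57.9 and 50.7 for the USP38 site, 38.0 and 38.0 for the USP54 site, and 18.7 and 31.6 for the USP34 site. The peak of the UBE2Q1 site had 26.5 and 24.9. That of the UBE2O site, close to the transcript start, had 28.6 and 20.4, with a low input signal of 10.9 in both replicates. Input was also low for the USP48 site, at 18.2 in both replicates, and the USP3 site, at 21.1 and 28.9. Of the printed sites only that of UBE2Q1, with 247 in both replicates, lay above the median input of member peaks. In all, 80 sites of 41 member genes matched in position and letters between replicates, with 50 in USP and 23 in UBE2 genes. At 28 of the 80 the input signal was the same number in both replicates, and 34 of 34 member peaks with the same window in both replicates had the same input signal. The replicates thus share input and are not fully separate measurements. The letters ggAc were present at 12 of the 50 USP sites and 9 of the 23 UBE2 sites. Over all peaks they made up 25.3% and 23.5% of USP sites, 39.4% and 30.3% of UBE2 sites and 30.7% and 29.5% of sites of all genes in replicates 1 and 2.

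**Figure D2:**
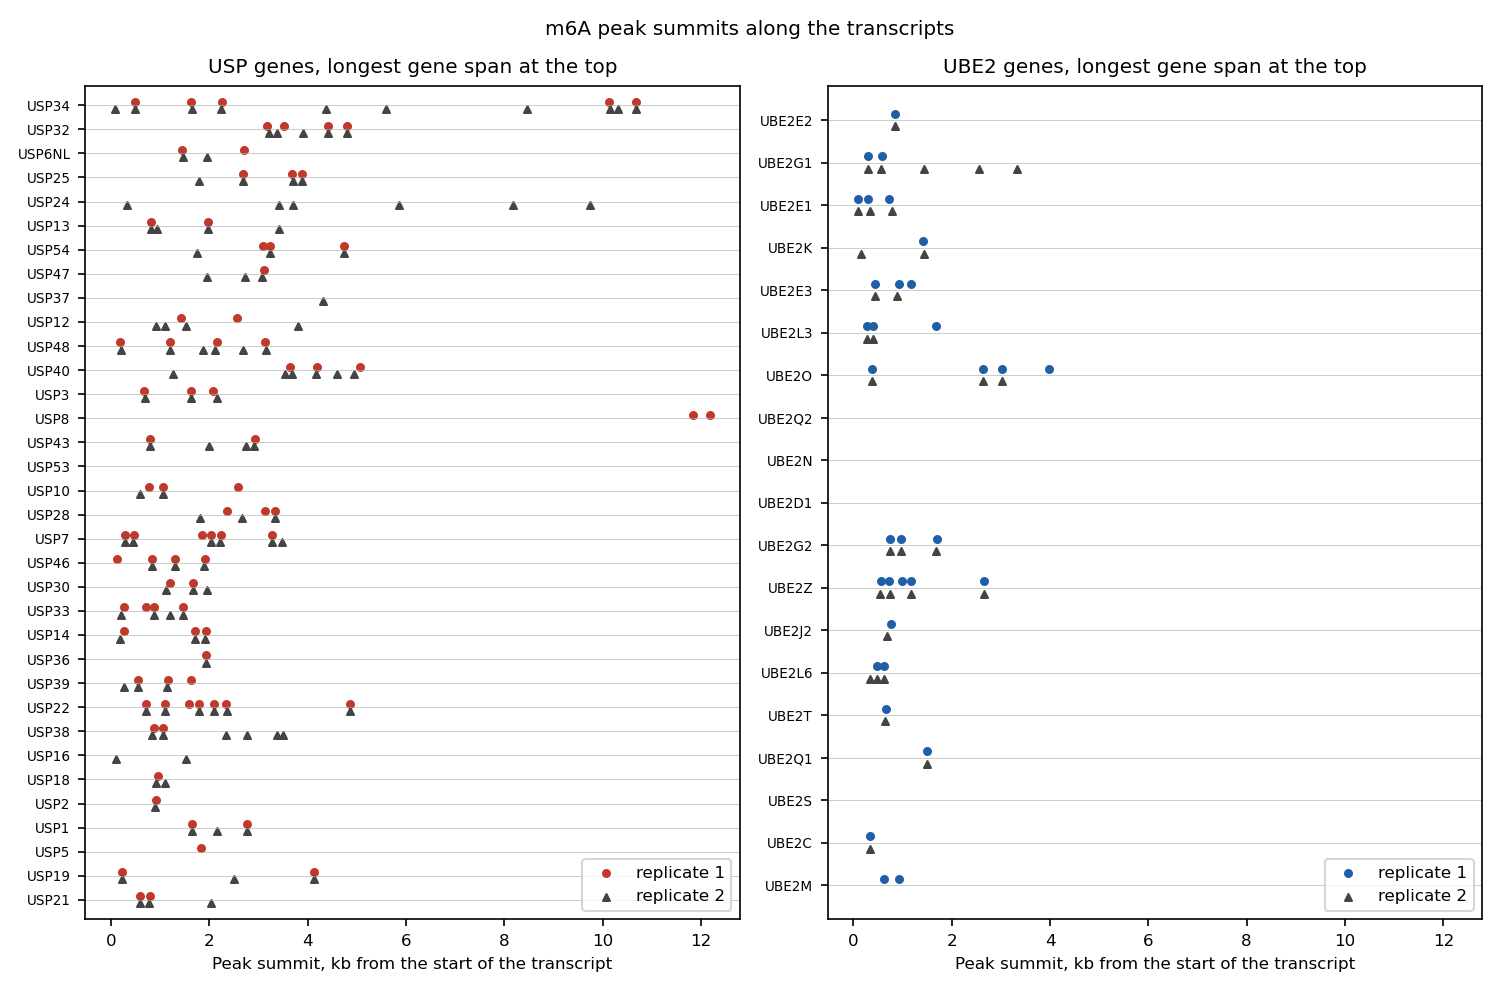
Summits of m6A peaks along the transcripts, in kb from the transcript start, for USP genes (left) and UBE2 genes (right) ordered by gene span, with replicate 1 as circles and replicate 2 as triangles. USP summits reach past 10 kb in USP34 and USP8, and no UBE2 peak ends past 4 kb, with UBE2O the farthest.

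Summits lay at median positions of 1854 and 1967 bases in USP genes, 737 and 690 bases in UBE2 genes and 1561 and 1548 bases in all genes. UBE2 peaks thus sat closer to the transcript start in both replicates. Across the 34 USP genes gene span and mean peak number had a Spearman rho of 0.31 and a Pearson r of 0.42, and across the 20 UBE2 genes 0.37 and 0.06. These are descriptions across genes measured in the same libraries.

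RIP with the YTHDF1 antibody listed 16 of 34 USP genes (47.1%) and 3 of 20 UBE2 genes (15%), against 35.3% of all genes. The list holds genes with a RIP over input ratio of at least 1.5 and an input of at least 1 FPKM, the unit that divides reads by transcript length and library size, so a gene outside it may be low in input or low in ratio. The list gives no input for genes outside it. In the control library mRNA values had medians of 8.02 for USP, 40.1 for UBE2 and 11.6 for all genes. There was 1 RIP and 1 input library, so no ratio has a replicate error. Listed genes had a median ratio of 2.35 for USP, 1.90 for UBE2 and 2.27 for all genes. The UBE2 median rests on 3 genes.

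USP34 had the highest ratio of any member, 6.77, from 7.37 FPKM in RIP and 1.09 FPKM in input, which is near the lowest input the list admits. UBE2O, a large enzyme that acts as E2 and E3 in one chain and clears unassembled proteins, had a ratio of 5.30 from 81.0 FPKM in RIP and 15.3 FPKM in input. These 2 genes stood above the others. USP19, which has a membrane-anchored form in the endoplasmic reticulum, followed with 4.11, and then OTUD7B with 3.73, USP32 with 3.36, USP47, which acts on DNA polymerase beta, with 3.06, and USP10 with 2.93. The lowest listed USP ratios were 1.64 for USP2, 1.72 for USP6NL and 1.74 for USP18, the protease that removes ISG15. Besides UBE2O the listed UBE2 genes were UBE2Q1 with 1.90 and UBE2G2, an E2 of degradation at the endoplasmic reticulum, with 1.61. USP7 and USP22 stood at 2.24 and 2.31, near the median of all genes.

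Of the 20 members listed by RIP, 19 also had m6A peaks in both replicates, and the exception was USP5, an enzyme that takes apart free ubiquitin chains, with 1 peak in replicate 1 and none in replicate 2. RIP listing and peaks in both replicates came together in 15 USP genes (44.1%) and 3 UBE2 genes (15%), against 31.4% of all genes. Gene span did not order the listing within families: 3 of 4 USP genes under 20 kb, 3 of 6 at 20 to 50 kb and 10 of 24 at 50 kb or more were listed, against 1 of 8, 1 of 4 and 1 of 8 UBE2 genes. In all genes the share listed was 26.7% under 20 kb, 37.0% at 20 to 50 kb and 43.6% at 50 kb or more. Among the 16 listed USP genes the end of the last peak and the RIP ratio had a Spearman rho of 0.59 and a Pearson r of 0.85 as a description; USP34 has both the highest ratio and the farthest last peak of these genes, ending at 10.7 kb.

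**Figure D3:**
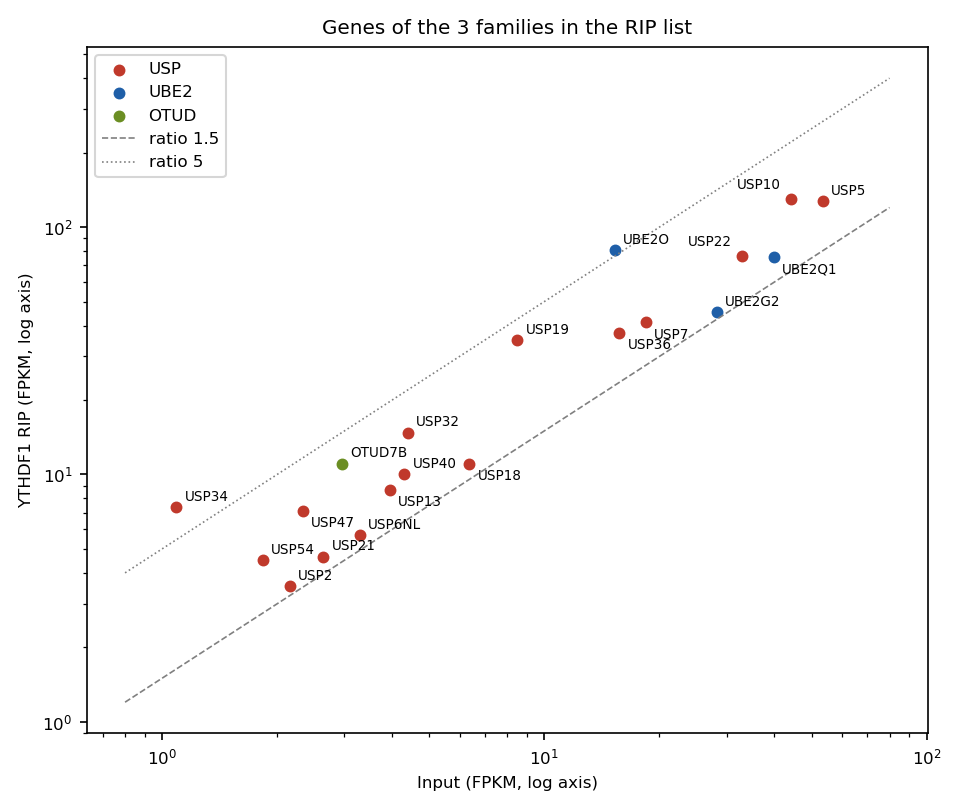
RIP against input abundance, both in FPKM on log axes, for the 20 listed members, with USP in red, UBE2 in blue and OTUD in green. Lines mark ratios of 1.5 and 5; USP34 (6.77) and UBE2O (5.30) are the points above the upper line.

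Translational efficiency was taken as log2(footprint + 1) minus log2(mRNA + 1), which largely cancels transcript length within a gene. The added 1 makes this incomplete for genes with low values, and median control mRNA was lower in USP genes than in UBE2 genes. It is a relative measure, since footprint and mRNA values were scaled separately. In the control its median was 1.32 for USP genes, 1.94 for UBE2 genes and 1.08 for all genes tested. The control had 1 library per assay, so these levels have no replicate error. The UBE2 family had the larger share in the upper range: 20 of 34 USP genes and 16 of 20 UBE2 genes lay above the median of all genes, and 9 USP and 10 UBE2 genes lay above the upper quartile of all genes, 1.98.

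UBE2E1 had the highest control translational efficiency of the members at 4.44, from a footprint value of 283 and an mRNA value of 12.1, and stood at the 99.2 percentile of all genes. UBE2K, which builds Lys48-linked chains, was next at 4.24. UBE2G1 had 3.49 and UBE2G2 2.81. The low end of the family held UBE2L3, which serves HECT and RBR ligases, at -0.59, UBE2J2 of the endoplasmic reticulum at -0.43, and UBE2M at -0.02. UBE2L6, the E2 of ISG15, had 0.68 and UBE2E3 1.11. UBE2E1 and UBE2E3 thus stood far apart within one subfamily.

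Among USP genes the highest were USP53 at 3.44, USP37, which acts on cyclin A, at 3.21, USP22 at 2.97, USP16, a histone H2A enzyme, at 2.92 and USP32 at 2.54. The lowest were USP24 at -1.30, USP18 at -0.88, USP5 at -0.55, USP21 at -0.26 and USP43 at -0.24. UCHL5, which is bound to the proteasome and to the INO80 complex, had 3.79, and USP14, the other proteasome-bound member, 2.26. OTUD3 stood at -0.45 and OTUD7B at 0.99. In the knockdown libraries UBE2E1 had 4.08 and 4.26 and UBE2K 3.95 and 3.99, so both stayed above the upper quartile, and USP24 had -0.27 and -0.69. Neighbours in the order cannot be separated, because 1 control library gives no spread. The same control value also enters the knockdown change, so a high control footprint raises this level and lowers that change. Between control level and footprint change, Spearman rho was -0.51 across USP genes and -0.13 across UBE2 genes.

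The knockdown was compared with the control in 1 limma fit over the 6 libraries with 2 residual degrees of freedom, and 57 members entered it. The fit gives each gene 1 estimate of spread for footprints and mRNA together. The SE of a gene is therefore the same in both assays and is not the error of either assay alone. OTUD1, the remaining member, was left out for low values, with footprints of 0.869 and 0.356 in the knockdown and 1.11 in the control. No member passed an adjusted p under 0.05 for footprints, mRNA or translational efficiency, where 0.0295% of all genes passed for footprints and 0% for mRNA and translational efficiency. Without adjustment, 7 of 57 members had p under 0.05 for footprints, 1 for mRNA and 1 for translational efficiency, against 8.85%, 0.472% and 2.73% of all genes. The members' changes below are therefore values and not calls. In bulk libraries, fewer cells of one kind and less RNA per cell cannot be told apart.

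Footprint changes of both families were close to those of all genes. The median log2 change was -0.22 for USP, -0.19 for UBE2 and -0.28 for all genes, so relative to all genes the family medians stood at 0.06 and 0.09. By library, USP medians were -0.36 in knockdown 1 and -0.25 in knockdown 2, UBE2 medians -0.15 and -0.25, and those of all genes -0.19 and -0.34. Family medians for mRNA were -0.05 for USP, -0.13 for UBE2 and -0.01 for all genes. For translational efficiency they were -0.24, -0.25 and -0.27 in the same families and all genes. The negative sign of the family medians for footprints is thus that of all genes.

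Both knockdown libraries were below the control in footprints for 16 of 34 USP genes and 14 of 20 UBE2 genes, against 51.2% of all genes. After each library was centred on its median these counts were 8 USP and 8 UBE2 genes, against 32.5%. Both libraries were above the control for 3 USP and 4 UBE2 genes, against 17.5%, and after centring for 8 and 9, against 32.5%. The 2 knockdown libraries fell on opposite sides of the control for 15 USP genes and 2 UBE2 genes, against 31.4% of all genes. Control footprints had medians of 36.8 for USP, 136 for UBE2 and 26.5 for all genes, and a link with abundance was not tested. For mRNA, 10 USP and 9 UBE2 genes were below in both libraries, against 29.9%, and 8 and 6 were above, against 30.9%. After centring, mRNA was below in 10 USP and 9 UBE2 genes and above in 8 and 7, against 30.6% of all genes each way. Translational efficiency was below in both libraries for 16 USP and 11 UBE2 genes, against 52% of all genes, and above for 6 and 4, against 18.7%. After centring it was below for 11 USP and 5 UBE2 genes and above for 11 and 7, against 33.9% of all genes each way.

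**Figure D4:**
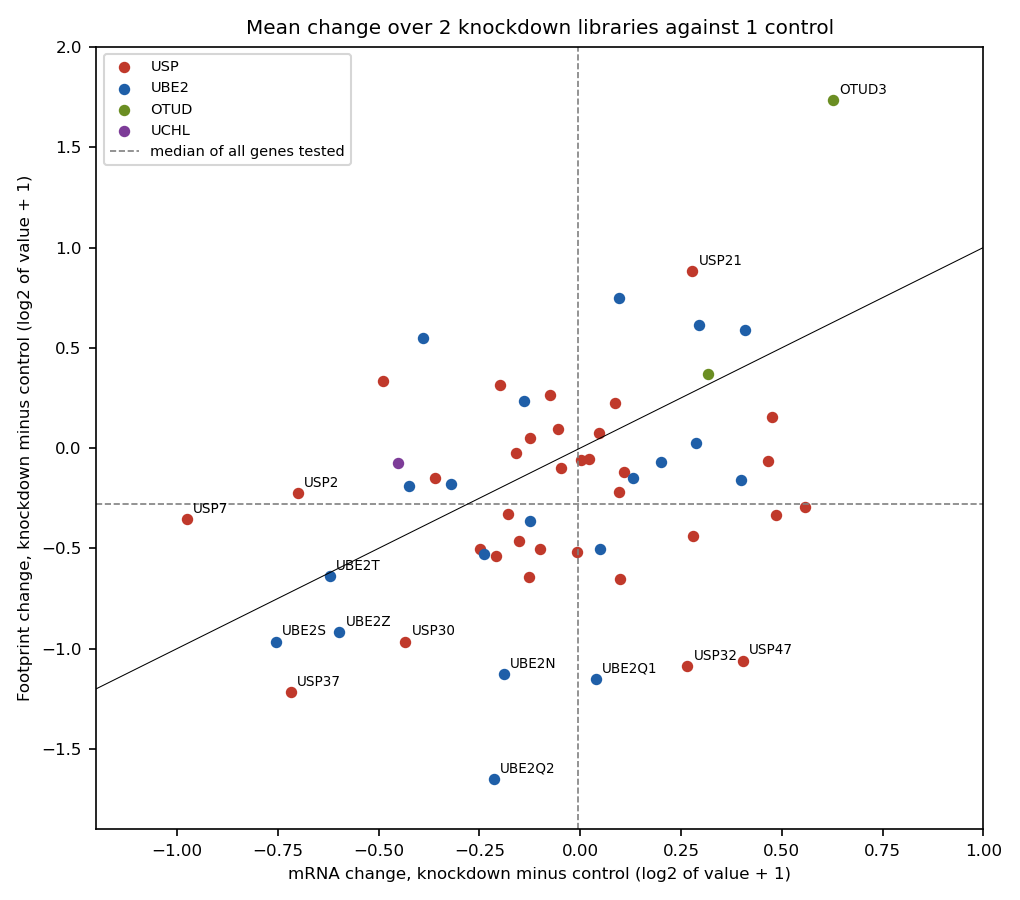
Mean log2 change of 57 members, knockdown minus control, for mRNA (x) and footprints (y), 1 point per gene coloured by family. Dashed lines are the medians of all genes tested and the black line marks equal change in both assays; USP32, USP47 and UBE2Q1 lie below it with mRNA at or above the control, and USP7 lies far left of it.

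Footprints and mRNA were both below the control in both knockdown libraries for 8 of 20 UBE2 genes (40%) and 5 of 34 USP genes (14.7%), against 17.6% of all genes. The UBE2 genes were UBE2C, UBE2M, UBE2N, UBE2O, UBE2Q2, UBE2S, UBE2T and UBE2Z, and the USP genes USP2, USP16, USP22, USP30 and USP37. These counts do not remove the median footprint shift of all genes (-0.28). After centring, footprints of UBE2M, UBE2O and USP16, for example, fell on both sides of the control. The other arrangements were footprints below with mRNA above in 3 USP and 4 UBE2 genes (12.9% of all genes), footprints above with mRNA below in 1 and 1 (4.23%), and both above in 1 and 1 (7.05%). The genes below the control in both assays include the pair that works with the anaphase-promoting complex in mitosis. UBE2C, which starts the chains there, had footprints of 641 and 769 in the knockdown and 1013 in the control, and mRNA of 226 and 286 in the knockdown and 300 in the control. UBE2S, which extends them, had footprints of 547 and 555 in the knockdown and 1077 in the control. Its mRNA was 212 and 224 in the knockdown and 368 in the control.

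All 4 values of UBE2S in the knockdown lay clear of the control, and the gene (chromosome 19, 55399745 to 55407788) had no m6A peak and no place in the RIP list. Its footprint change was -0.97 ± 0.27 (SE), with unadjusted p = 0.011 and adjusted p = 0.552 in limma, and its mRNA change was -0.75 ± 0.27, with adjusted p = 1.00. UBE2C stood at -0.53 ± 0.31 in footprints and -0.24 ± 0.31 in mRNA in the same fit. UBE2T, the E2 of the Fanconi anaemia DNA repair pathway, had footprints of 277 and 329 in the knockdown and 470 in the control, with mRNA of 46.5 and 63.6 in the knockdown and 84.2 in the control. UBE2Z had footprints of 63.4 and 112 in the knockdown and 160 in the control, and mRNA of 18.8 and 29.1 in the knockdown and 35.9 in the control. For UBE2T and UBE2Z knockdown 1 stood lower than knockdown 2 in both assays. RefSeq annotates pseudogenes named after 7 USP genes (USP8, USP10, USP12, USP21, USP24, USP32 and USP37) and 6 UBE2 genes (UBE2C, UBE2L3, UBE2M, UBE2N, UBE2Q2 and UBE2S), so reads shared with such copies make the values of these genes uncertain.

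Several members had lower footprints in both knockdown libraries with mRNA near the control or above it. UBE2Q1 (chromosome 1, 154548577 to 154558662), an E2 with a long amino-terminal part, had footprints of 46.6 and 52.9 in the knockdown and 111 in the control. Its mRNA was 38.1 and 39.0 in the knockdown and 37.5 in the control. The footprint values lay well apart while the mRNA values nearly met. Its translational efficiency change was -1.19 ± 0.47 (SE), with unadjusted p = 0.041 and adjusted p = 0.996 in limma. UBE2Q1 also carries the printed site with ratios of 26.5 and 24.9 and is in the RIP list.

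USP32 (chromosome 17, 60177327 to 60422416), a membrane-anchored USP, had footprints of 23.0 and 29.3 in the knockdown and 56.2 in the control, with mRNA of 10.1 and 11.6 in the knockdown and 8.84 in the control. USP47 (chromosome 11, 11841972 to 11961887) had footprints of 14.5 and 22.7 in the knockdown and 39.0 in the control, with mRNA of 15.4 and 16.4 in the knockdown and 11.7 in the control. In both genes the knockdown libraries lay below the control for footprints and above it for mRNA. Their translational efficiency changes were -1.35 ± 0.58 and -1.46 ± 0.63 (SE), each with adjusted p = 0.996 in limma. Both are in the RIP list and have m6A peaks in both replicates. USP3, a histone enzyme outside the RIP list, showed the same sides with smaller sizes, at footprints of 105 and 88.7 in the knockdown and 131 in the control and mRNA of 33.5 and 33.6 in the knockdown and 27.4 in the control.

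Some members without an m6A peak also had lower footprints, and a link between peaks and footprint changes was not tested. Of all genes, 51.2% had footprints below the control in both knockdown libraries. UBE2N (chromosome 12, 93405684 to 93441947), which has no peak, had footprints of 133 and 159 in the knockdown and 318 in the control, with mRNA of 36.5 and 46.5 in the knockdown and 47.1 in the control. UBE2Q2, also without a peak, had footprints of 3.64 and 9.30 in the knockdown and 20.7 in the control, with mRNA of 1.64 and 2.27 in the knockdown and 2.41 in the control. Both had footprints that did not overlap between groups, and the footprint changes were -1.13 ± 0.33 for UBE2N and -1.65 ± 0.63 for UBE2Q2 (SE; adjusted p = 0.552 each in limma). UBE2Q2 has the most pseudogenes of the members, 11.

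USP37 (chromosome 2, 218450251 to 218568351) was low in both assays. Its footprints were 36.3 and 25.1 in the knockdown and 71.5 in the control, and its mRNA 4.27 and 3.33 in the knockdown and 6.86 in the control. The changes were -1.22 ± 0.45 for footprints and -0.72 ± 0.45 for mRNA (SE; adjusted p = 0.552 and 1.00 in limma). USP30, which sits on mitochondria and opposes their removal by Parkin, had footprints of 4.07 and 7.56 in the knockdown and 11.9 in the control. Its mRNA of 1.94 and 3.78 in the knockdown and 4.07 in the control shows that knockdown 2 was close to the control there.

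USP7 had the lowest mRNA change of the members. Its mRNA was 70.7 and 93.0 in the knockdown and 160 in the control, while its footprints were 83.7 and 166 in the knockdown and 151 in the control. The mRNA values lay apart and the footprint values enclosed the control. The mRNA change was -0.98 ± 0.46 (SE, adjusted p = 1.00 in limma), and this SE also takes in the spread of the footprints. USP2, known for acting on cyclin D1, had mRNA of 2.03 and 1.74 in the knockdown and 3.68 in the control. USP24 paired mRNA of 7.36 and 8.34 in the knockdown and 11.4 in the control with footprints of 5.96 and 4.77 in the knockdown and 4.03 in the control.

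Other members had higher footprints in both knockdown libraries. OTUD3 (chromosome 1, 19882395 to 19912945) had footprints of 12.1 and 7.04 in the knockdown and 2.09 in the control, with mRNA of 4.82 and 6.28 in the knockdown and 3.21 in the control. No values overlapped between groups, and the footprint change was 1.73 ± 0.54 (SE; adjusted p = 0.552 in limma). USP21 had footprints of 4.37 and 5.60 in the knockdown and 2.23 in the control. UBE2L6 had 28.6 and 28.2 in the knockdown and 16.5 in the control, with mRNA of 11.6 and 9.76 in the knockdown and 9.90 in the control. UBE2E3 had footprints of 166 and 153 in the knockdown and 104 in the control, and UBE2E2 had 81.5 and 67.5 in the knockdown and 50.3 in the control. OTUD3 and USP21 were among the members with low values in every library.

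The mRNA values above the control in both knockdown libraries were modest. USP53 had 6.81 and 4.08 in the knockdown and 3.28 in the control, and USP28, known for stabilising MYC, 2.39 and 2.96 in the knockdown and 1.62 in the control. USP34 had 12.7 and 11.4 in the knockdown and 8.44 in the control, and its footprints of 25.1 and 31.8 in the knockdown lay on both sides of the 29.6 in the control. UBE2D1, an E2 that serves many ligases, had mRNA of 18.3 and 12.3 in the knockdown and 11.05 in the control. In UBE2D1 and USP53 knockdown 1 stood far above knockdown 2 in footprints, at 83.1 and 26.0 for UBE2D1 and 67.7 and 19.9 for USP53.

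**Figure D5:**
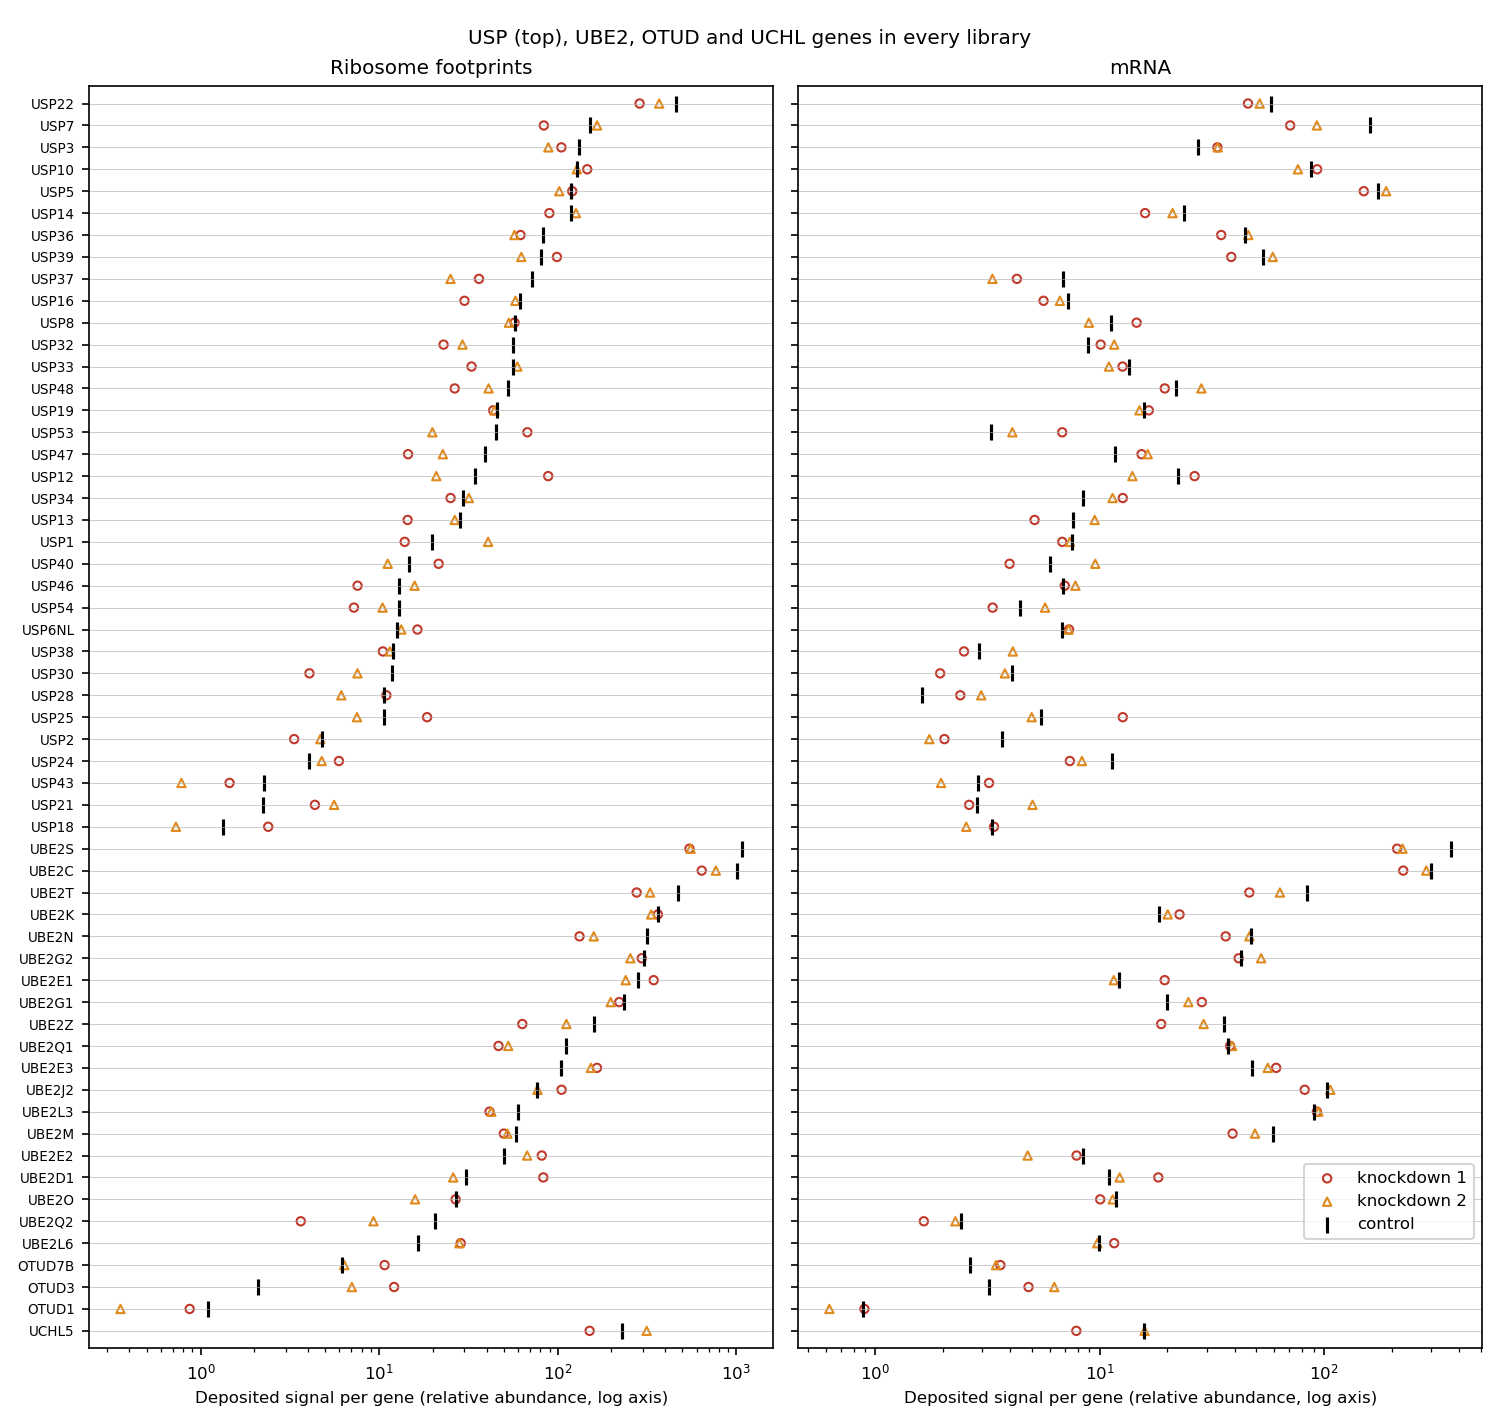
Footprint (left) and mRNA (right) values of 57 members in every library on log axes, with knockdown 1 as circles, knockdown 2 as triangles and the control as a black bar. Genes run by family and then by control footprint value; UBE2S, UBE2N and UBE2Q1 show both knockdown footprints well left of the control, and USP12, USP53 and UBE2D1 show the 2 knockdown libraries far apart.

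The members with the highest RIP ratios did not lie on 1 side of the control in footprints. UBE2O had footprints of 26.8 and 15.9 in the knockdown and 26.9 in the control, USP19 had 43.5 and 44.3 in the knockdown and 45.8 in the control, and OTUD7B had 10.7 and 6.38 in the knockdown and 6.22 in the control. USP10 had 146 and 128 in the knockdown and 128 in the control. Among these, USP34 and USP10 had values on or on both sides of the control, and OTUD7B lay above it. UBE2O lay below the control with knockdown 1 close to it, and fell on both sides after centring. USP19 lay slightly below the control in both knockdown libraries. USP32 and USP47, with ratios between those of OTUD7B and USP10, had the lowest footprint changes of these genes, -1.09 and -1.06, with both libraries below the control also after centring. Further down the list, USP22 had 288 and 370 in the knockdown and 463 in the control, and USP36 61.9 and 57.3 in the knockdown and 82.5 in the control.

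Other genes of the ubiquitin system gave the same picture of few calls. Of 28 other deubiquitinases on a list, 14 were tested and none passed in either direction; 3 had footprints above the control in both knockdown libraries, 6 below and 5 on both sides, against 17.5%, 51.2% and 31.4% of all genes. ATXN3, the deubiquitinase of Machado-Joseph disease, had footprints of 41.6 and 44.1 in the knockdown and 20.4 in the control, and STAMBP, an endosomal enzyme, had 29.9 and 49.1 in the knockdown and 84.4 in the control. Of 16 E1 and other conjugation enzymes, 11 were tested, with 1 above, 6 below and 4 on both sides and none passing, against the same shares of all genes. Of 9 ubiquitin precursor and ubiquitin-like modifier genes, 7 were tested and none passed, with 5 below and 2 on both sides, against 51.2% and 31.4% of all genes. In the RIP list were 0 of the 7, against 35.3% of all genes. SUMO3 had footprints of 54.7 and 58.0 in the knockdown and 108 in the control, with mRNA of 67.9 and 80.1 in the knockdown and 63.2 in the control. The median footprint changes of these 3 lists were -0.08, -0.31 and -0.46, against -0.28 for all genes.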

How the data were processed

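For footprints and mRNA the deposited table gives 1 signal value per gene and library, a relative abundance whose unit is not named per the file headers, and every control value in it is at least 0.5. The authors' RIP list gives FPKM for RIP and input and their ratio. The authors' m6A lists give peak windows, summits and site positions along a transcript, m6A and input signal, and the ratio of both. STAR and the GRCh38 build were used, per the submitters' processing notes, with versions not given in the sources used here. Depth in reads is unknown, so no count test and no counting interval was possible.

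Members were taken by symbol from 6926 rows, and 12 rows with damaged names were left out, leaving 6914. Values were taken as log2(value + 1), genes with a mean log2 value under 1 were left out (132 genes), and 6782 genes were fitted in limma 3.58.1 (R 4.3.3) with a term for each assay and for knockdown in each assay. The translational efficiency change is the interaction. P-values were adjusted by Benjamini-Hochberg over all genes tested, with a threshold of 0.05. The fit was also run on simulated data with known footprint changes. Those data had independent noise of equal size in every gene and library, so the run checks the code and not its power on these libraries. The rest was done in Python 3.11.15 with pandas 2.3.3, numpy 2.4.6 and matplotlib 3.10.9. Gene spans came from RefSeq (GRCh38.p14), which matched 58 of 58 members.

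The members, lists and tests were chosen with earlier results of these data known. Named members are the 5 highest and 5 lowest changes per assay among members whose knockdown libraries both lie above or both below the control, the 5 highest and 5 lowest control translational efficiencies per family, the RIP list's 5 highest and 3 lowest per family, the 5 per family with most peaks or highest summed ratio, and a list of well-known members. USP3, USP5, USP8, USP12, USP19 and USP36, and the genes of the other lists, were partly picked after their values were seen. Alternatives were other pseudocounts, no filter, median centring, quantile normalisation, each assay fitted alone, a replicate block, higher ratio minimums and leaving out each replicate. A further UBE2 member is counted in the family values and is not reported by name here.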

Additional observations from a re-analysis of the deposited data

Results flagged for a closer look

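In 9 members footprints and mRNA lay on opposite sides of the control in both knockdown libraries. This count does not remove the median footprint shift of all genes (-0.28). The difference itself was tested as the interaction in limma, and adjusted p was 0.996 for each gene, so none passed. Footprints were below and mRNA above the control for 3 USP genes and 4 UBE2 genes, against 12.9% of all genes. The changes in translational efficiency were -1.46 for USP47, -1.35 for USP32 and -0.72 for USP3. For the UBE2 genes they were -1.19 for UBE2Q1, -0.56 for UBE2G1, -0.55 for UBE2L3 and -0.27 for UBE2K. UBE2G1 had footprints of 221 and 198 in the knockdown and 234 in the control, with mRNA of 28.5 and 24.8 in the knockdown and 19.97 in the control. UBE2L3 had footprints of 41.5 and 42.5 in the knockdown and 59.9 in the control, with mRNA of 93.0 and 94.4 in the knockdown and 90.5 in the control. Relative to all genes, the change was -0.29 for UBE2G1, -0.28 for UBE2L3 and 0.0015 for UBE2K. After median centring, footprints of UBE2G1 and UBE2K lay above the control, on the same side as their mRNA. UBE2K stood close to the control in both assays, with footprints of 364 and 334 in the knockdown and 366 in the control.

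The opposite case, footprints above and mRNA below, was seen for 1 USP and 1 UBE2 gene, against 4.23% of all genes. The change was 0.94 for UBE2E2 and 0.82 for USP24. UBE2E2 had mRNA of 7.89 and 4.77 in the knockdown and 8.38 in the control, where knockdown 1 was near the control.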

How the results depend on the processing

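Over all genes, 2 passed for footprints in the fit as reported, 0 with a pseudocount of 0.1, without the filter, under median centring and under quantile normalisation, and 2 to 80 when 1 knockdown library was left out, the most without knockdown 2 of the footprints. With mRNA or translational efficiency, 0 passed in the fit as reported and 0 to 1 when a library was left out. The cause was not tested. Labels share replicate numbers but state no pairing, and the main fit uses none. Across the genes tested, the difference between the 2 knockdown libraries correlated at 0.37 between assays. With the number as a replicate block, 30 genes passed for footprints, 2 for mRNA and 6 for translational efficiency, none of them a member.

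The USP footprint median was 0.069 under median centring and 0.074 under quantile normalisation, and -0.36 to -0.22 when a library was left out. For UBE2 it was 0.10 and 0.031, and -0.25 to -0.15. These 2 scalings set the median of all genes to about the same level in each library. The USP mRNA median ran from -0.11 to 0.01 and the UBE2 one from -0.14 to -0.019 when a library was left out. For translational efficiency the USP median was 0.039 and 0.022 under the scalings, -0.26 with a pseudocount of 0.1, and -0.30 to -0.15 when a library was left out; the UBE2 median was 0.028 and -0.024 under the scalings and -0.27 to -0.12. Control translational efficiency had medians of 1.45 and 1.47 for USP and 1.95 and 1.96 for UBE2 with pseudocounts of 0.1 and 0. A RIP ratio of at least 2 kept 1 UBE2 gene, and taking the end of the last m6A peak for span gave 3.13 and 1.08 kb for USP and UBE2. Peaks in m6A were found for 30 to 31 USP genes and 15 UBE2 genes when 1 replicate was used. Leaving out USP6NL, added after seeing the data, kept the medians within their spread. The 30 named member changes kept their sign in every setting run; as they were picked with both knockdown libraries on 1 side, leaving out a library could not turn it, and no member passed in any setting. RefSeq protein length was not used here. Depth is unknown for every library, 1 control library gives no spread of its own, and genes near the filter have the least certain ratios.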

Other observations

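The RIP and m6A lists also hold USP, UBE2, OTUD and UCHL genes that are not in the expression table. USP9X, a large deubiquitinase known for opposing protein degradation, had a RIP ratio of 6.18 from 9.52 FPKM in RIP and 1.54 FPKM in input, and 5 and 6 m6A peaks in replicates 1 and 2. USP34 in the table had 6.77. USP20 had a ratio of 2.50, USP11 2.47, USP4 2.298 and USP42 2.03, and the OTUD genes OTUD4 and OTUD5 had 2.41 and 1.84. USP11 had no peak in either replicate, while USP42 had 8 and 6.

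Of the 6 UBE2 genes outside the table, 0 were in the RIP list and 6 had m6A peaks in both replicates. Of the 9 USP genes outside it, 5 were in the RIP list and 8 had peaks in both replicates. Such genes are seen only if 1 of these lists holds them, so the counts are not shares of a family. UBE2H had 7 and 7 peaks, more than any UBE2 gene of the table. UBE2A, known for ubiquitylating PCNA and histone H2B, had 3 and 3, and UBE2D2 1 and 1. UCHL3 had 1 and 1.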
